A study of Marchantia polymorpha with 78 samples.

Results

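The 5 genes described here, of the liverwort Marchantia polymorpha, were measured in 26 groups of light and time: the dehydrin gene MpDHN1 (Mp6g07540) and the late embryogenesis abundant (LEA) family genes MpLEA-like12 (Mp3g04820), MpLEA-like14 (Mp3g08260), MpLEAL7 (Mp2g26410) and MpLEA-like48 (Mp6g07560). They are 5 of 19355 genes in the deposited table, and all 5 were among the 13054 that passed a filter on low values. The 5 were chosen from measured values of these same libraries, namely low levels in light against darkness, with MpDHN1, MpLEA-like12 and MpLEA-like14 known beforehand as large falls at 24 h; which values chose the other 2 is not recorded. Their differences between light and darkness, and every value at 24 h, are therefore given as a description with no test. Darkness against time zero, light against time zero, and one light against another, at 30 min to 12 h, were tested. The light and dark libraries in them also enter the light-against-darkness values. Falls from time zero in light, rises in darkness and differences between lights are therefore not independent of the choice.

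The plants were Tak-1, a male wild-type line, so all groups share 1 genotype. Gemmae, the clonal propagules of this species, grew on sugar-containing agar for 8 days at 23 °C in white light that was never switched off, and then stood in darkness for 24 h. Plates then went into white light (50 to 60 µmol m⁻² s⁻¹), blue light of 430 nm (30 to 40), red light of 660 nm (80 to 90) or far-red light of 730 nm (30 to 40), or stayed in darkness, for 30 min, 60 min, 180 min, 12 h or 24 h. Time zero closes those 24 h of darkness, so it is itself a dark-adapted state and no group was sampled in the light before it. Each of the 26 groups has 3 libraries, and each library pools whole thalli of 3 plants. Per the labels' protocols, a plate carried 3 biological replicates, so p-values measure the spread between these libraries, and plate and treatment cannot be told apart. Values are TPM (transcript abundance as a share of the library, scaled for transcript length, so that levels of different genes can be set side by side). Read depth is unknown. In whole thalli, fewer cells that express a gene and less RNA per cell cannot be told apart.

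LEA proteins are hydrophilic and mostly unfolded in water. They were named for their build-up in drying seeds and are linked to protection of membranes and proteins during water loss. Dehydrins are a class of LEA proteins marked by lysine-rich repeats. Land plants, bryophytes included, raise many of these genes on drying, cold or salt, and through abscisic acid, the hormone that acts by PYL receptors, SnRK2 kinases and the factors ABI3 and ABI5. MpDHN1 is known as an abscisic acid-induced gene of this liverwort. The names of the other 4 place them in the LEA family and say nothing of a separate role.

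Of the 78 libraries, 5 correlated more closely with a library of another group than with either of their own. Replicate 3 of time zero and replicates 1 and 3 of darkness at 30 min did so narrowly, at 0.9961 to 0.9963 against at most 0.9958 to 0.996 within their groups. The remaining pair of libraries stood further apart. Over the 13054 genes, replicate 3 of far-red light at 60 min correlated with the other 2 of its group at r = 0.9925 and 0.9927 and with a far-red library of 30 min at 0.9955. Replicate 3 of darkness at 60 min correlated with its own group at 0.9881 and 0.9896 and with a dark library of 180 min at 0.9935. Within the other 24 groups r was at least 0.9918, a minimum below the values of the far-red library within its own group. The far-red library was low for all 5 genes, at 24.8% of the mean of the other 2 for MpLEAL7 and 58.4% for MpLEA-like12, with the other genes between. The dark library held 65.2% to 81.2% of the mean of its 2 partners. Calls for the 5 genes at 60 min that change without them are given both ways. So are the far-red count of other LEA genes and the abscisic acid calls that change at 60 min. Their part in the correlations between genes was not tested.

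**Figure D1:**
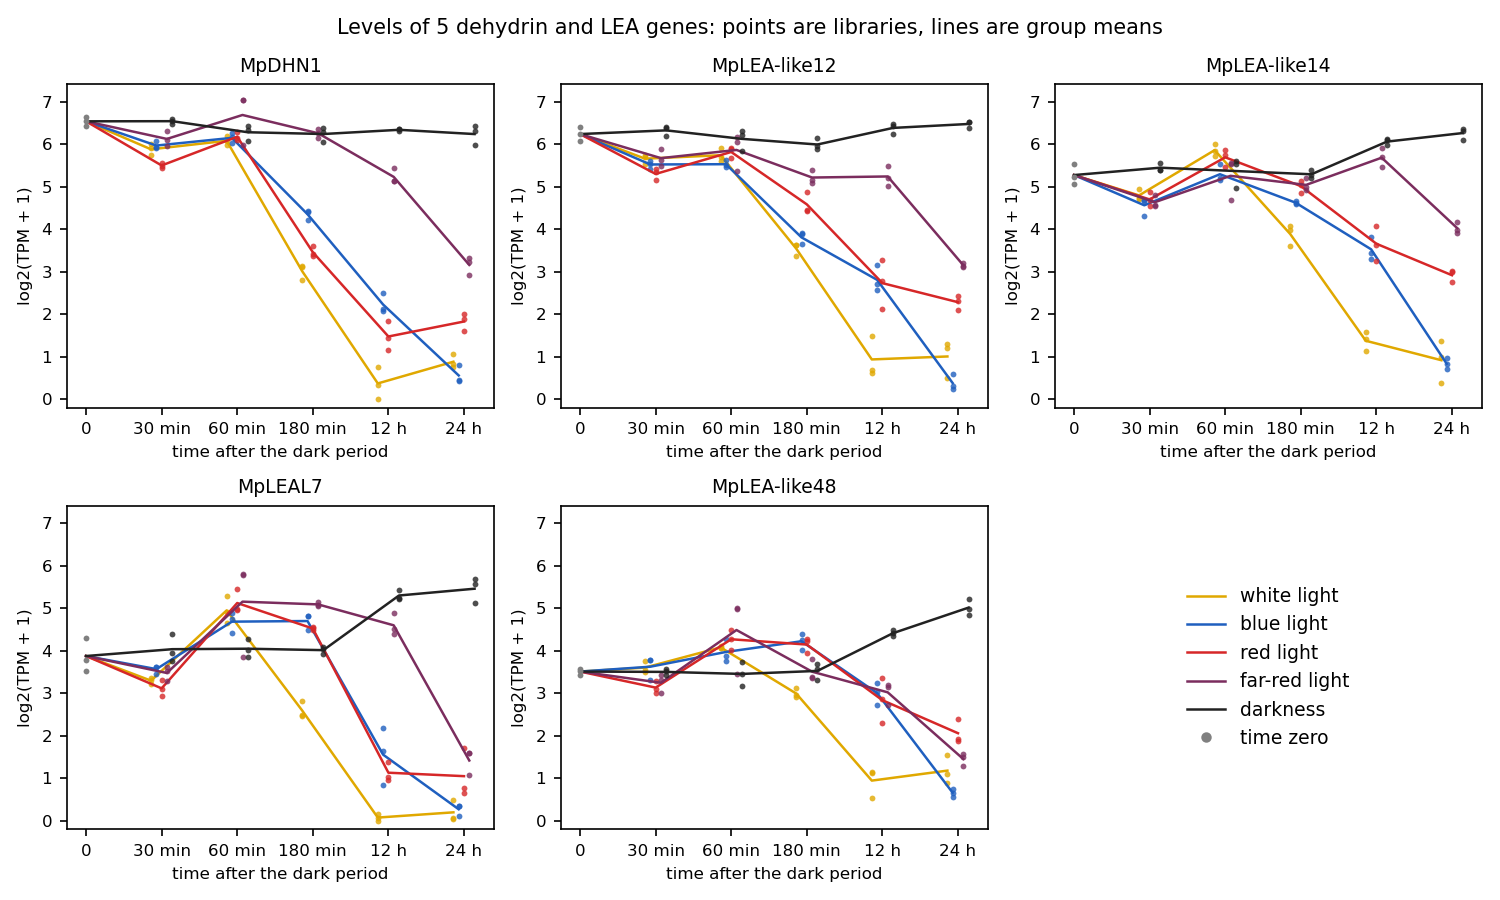
Level of each of the 5 genes, as log2(TPM + 1), against time after the dark period (times evenly spaced, not to scale) in white, blue, red and far-red light and in darkness; points are single libraries, lines join group means, and grey points are the 3 libraries at time zero. Every light lies below darkness at 12 and 24 h, with far-red light clear of the other lights at 12 h for 4 of the 5 genes, and MpLEAL7 and MpLEA-like48 lie higher in white, blue and red light than in darkness at 60 min.

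MpDHN1, the dehydrin gene, had the highest mean level of the 5 at time zero. In white light its 3 libraries gave 63.0, 52.1 and 58.5 TPM after 30 min, 62.4, 71.6 and 65.9 TPM after 60 min, 7.74, 5.96 and 7.55 TPM after 180 min, 0.268, 0.695 and 0 TPM after 12 h and 0.763, 1.09 and 0.688 TPM after 24 h. In blue light they were at 59.1, 59.7 and 65.7 TPM, then 70.6, 63.6 and 75.5, then 17.6, 20.5 and 20.1, then 3.33, 4.63 and 3.18 and, at 24 h, 0.371, 0.736 and 0.334 TPM. In red light the same times gave 46.2, 42.3 and 43.9 TPM, 76.6, 69.8 and 67.0, 11.1, 9.56 and 9.33, 1.72, 2.55 and 1.21 and, at 24 h, 2.67, 2.02 and 3.00 TPM. In these 3 lights every library of 180 min and later lay below every library of 30 and 60 min, with white light lowest and blue highest at 180 min and 12 h. In far-red light 30 min gave 78.6, 67.3 and 60.8 TPM, 60 min gave 130.5, 130.1 and 61.9, 180 min gave 69.8, 81.4 and 75.1, 12 h gave 34.0, 33.9 and 42.0 and 24 h gave 8.97, 8.41 and 6.54 TPM. The libraries of time zero held 91.9, 84.6 and 99.1 TPM. In darkness 30 min gave 87.8, 92.5 and 95.5 TPM, 60 min gave 84.7, 79.4 and 66.7, 180 min gave 82.6, 64.9 and 76.7, 12 h gave 81.1, 77.6 and 80.3 and 24 h gave 62.4, 77.7 and 84.5 TPM. The far-red libraries overlapped darkness at 60 and 180 min and lay below it at 30 min, 12 h and 24 h. A white-light library of MpDHN1 at 12 h, and another of MpLEAL7, is listed at 0 in a table without counts, and whether it holds no transcript cannot be told.

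MpLEA-like12 lay below darkness without overlap in all 4 lights at 30 min and from 180 min on, and at 60 min in blue light only. At 180 min its libraries were at 9.35, 11.4 and 11.3 TPM in white light, 11.4, 13.7 and 13.9 in blue, 28.2, 20.7 and 20.6 in red, 34.7, 41.2 and 32.8 in far-red and 69.4, 60.5 and 58.1 TPM in darkness. Far-red light was the nearest to darkness, and no light overlapped it. At 12 h they were at 0.536, 1.81 and 0.612 TPM in white, 4.88, 7.90 and 5.52 in blue, 5.82, 8.73 and 3.38 in red, 36.0, 31.3 and 43.9 in far-red light and 88.3, 74.7 and 84.3 TPM in darkness. At 24 h they were at 1.29, 1.47 and 0.419 TPM in white, 0.494, 0.184 and 0.234 in blue, 3.94, 3.30 and 4.38 in red, 7.60, 8.20 and 7.83 in far-red light and 81.8, 90.4 and 91.3 TPM in darkness. At 24 h blue and white light overlapped, and red, far-red and darkness followed above them without overlap. Time zero gave 74.1, 66.1 and 83.6 TPM. The early groups were closer together: 49.5 ± 3.67, 44.9 ± 3.00, 38.4 ± 3.58 and 50.2 ± 7.45 TPM in white, blue, red and far-red light at 30 min, against 79.1 ± 5.96 TPM in darkness (SD, n = 3). At 60 min the means were 52.5 ± 5.94, 45.1 ± 2.88, 55.4 ± 5.08 and 58.8 ± 16.6 TPM in white, blue, red and far-red light, against 69.4 ± 12.1 TPM in darkness. Without the library that stood apart in each, far-red light was at 68.3 TPM and darkness at 76.2 TPM.

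MpLEA-like14 was lower in all 4 lights than in darkness at 30 min, though not at 60 min. Its means at 30 min were 26.8 ± 2.57 TPM in white, 22.7 ± 3.32 in blue, 25.1 ± 3.13 in red and 23.9 ± 2.61 in far-red light, and 42.6 ± 2.94 TPM in darkness (SD, n = 3). All 12 light libraries lay below the 3 dark ones. At 60 min the libraries were at 51.9, 63.4 and 56.0 TPM in white, 35.7, 34.6 and 44.8 in blue, 56.8, 52.7 and 43.0 in red, 45.3, 45.6 and 24.6 in far-red light and 44.9, 47.8 and 30.2 TPM in darkness. White light now lay above darkness, and the other lights overlapped it. At 180 min they were at 14.7, 11.2 and 15.8 TPM in white, 23.0, 23.4 and 24.5 in blue, 34.3, 31.8 and 27.9 in red, 30.8, 35.9 and 29.3 in far-red light and 37.9, 35.6 and 40.9 TPM in darkness. At 12 h they were at 1.18, 1.98 and 1.67 TPM in white, 8.89, 13.1 and 9.88 in blue, 11.4, 15.9 and 8.48 in red, 50.4, 42.7 and 58.8 in far-red light and 61.5, 68.1 and 67.2 TPM in darkness. At 12 h white light was under 2 TPM and the other lights were not. At 24 h the libraries were at 0.995, 1.58 and 0.299 TPM in white, 0.958, 0.626 and 0.769 in blue, 7.02, 6.95 and 5.70 in red, 14.7, 14.1 and 17.0 in far-red light and 67.9, 80.8 and 78.5 TPM in darkness, with 32.4, 36.2 and 45.1 TPM at time zero. Darkness at 24 h lay above time zero with no overlap.

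MpLEAL7 was below darkness at 30 min and above it at 60 min in white, blue and red light. At 30 min its libraries were at 9.15, 8.34 and 8.89 TPM in white, 11.3, 9.91 and 11.3 in blue, 8.88, 6.68 and 7.48 in red, 11.2, 10.5 and 8.72 in far-red light and 14.4, 20.1 and 12.5 TPM in darkness. At 60 min they were at 24.1, 38.1 and 28.8 TPM in white, 20.3, 25.9 and 28.4 in blue, 42.4, 29.8 and 30.3 in red, 54.9, 54.2 and 13.5 in far-red light and 15.3, 18.2 and 13.3 TPM in darkness. None of the libraries of these 3 lights overlapped darkness at either time, nor did those of far-red light once its replicate 3 was left out at 60 min. At 180 min white light was at 6.01, 4.63 and 4.50 TPM, while blue light was at 21.2, 26.9 and 27.0, red at 22.1, 22.4 and 21.2 and far-red at 32.7, 34.3 and 32.0 TPM, against 15.5, 15.8 and 14.04 TPM in darkness. White light was below darkness and the 3 monochromatic lights above it. At 12 h the libraries were at 0, 0.0484 and 0.105 TPM in white, 0.781, 3.56 and 2.10 in blue, 0.946, 1.62 and 1.04 in red, 21.7, 19.8 and 28.7 in far-red light and 41.9, 36.8 and 36.3 TPM in darkness. At 24 h they were at 0.398, 0.0395 and 0.0299 TPM in white, 0.278, 0.0736 and 0.268 in blue, 0.578, 0.709 and 2.26 in red, 1.09, 2.03 and 1.99 in far-red light and 33.7, 50.0 and 46.7 TPM in darkness. Time zero gave 12.8, 10.5 and 18.7 TPM, below darkness at 12 h and 24 h without overlap.

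MpLEA-like48 had the lowest mean of the 5 at time zero, with 10.9, 10.5 and 9.68 TPM. At 60 min its libraries were at 15.6, 15.7 and 16.2 TPM in white, 12.4, 13.6 and 18.4 in blue, 21.5, 18.4 and 15.2 in red, 30.7, 31.2 and 9.93 in far-red light and 9.86, 12.3 and 8.04 TPM in darkness, so that white, blue and red light lay above darkness. At 180 min they were at 6.70, 6.51 and 7.64 TPM in white, 15.2, 17.8 and 20.1 in blue, 17.6, 18.3 and 14.3 in red, 9.34, 12.8 and 9.18 in far-red light and 11.9, 8.86 and 10.9 TPM in darkness. Blue and red light were then still above darkness and white light below it. At 12 h they were at 0.456, 1.22 and 1.19 TPM in white, 5.58, 8.49 and 7.17 in blue, 6.25, 9.18 and 3.89 in red, 7.90, 5.56 and 8.08 in far-red light and 19.3, 20.3 and 21.2 TPM in darkness. At 24 h they were at 1.92, 1.14 and 0.838 TPM in white, 0.680, 0.479 and 0.568 in blue, 2.77, 2.66 and 4.20 in red, 1.95, 1.45 and 1.82 in far-red light and 27.4, 30.6 and 36.3 TPM in darkness. The 3 far-red libraries at 24 h all lay below the 3 red ones, the reverse of MpDHN1, MpLEA-like12 and MpLEA-like14. Its means at 30 min were 11.2 ± 1.24, 11.4 ± 2.16, 7.77 ± 0.900 and 8.53 ± 1.39 TPM in white, blue, red and far-red light, against 10.3 ± 0.556 TPM in darkness (SD, n = 3).

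At 24 h, where falls were known before the choice, the 5 genes stood in white light at 1.13% (MpDHN1), 1.21% (MpLEA-like12), 1.27% (MpLEA-like14), 0.359% (MpLEAL7) and 4.14% (MpLEA-like48) of their mean TPM in darkness. In blue light the shares ran from 0.346% for MpLEA-like12 to 1.83% for MpLEA-like48, in red light from 2.72% for MpLEAL7 to 10.2% for MpLEA-like48, and in far-red light from 3.92% for MpLEAL7 to 20.2% for MpLEA-like14. As differences in log2(TPM + 1), which understate changes near 0, MpDHN1 was at −5.36 (SE 0.16) in white, −5.68 (SE 0.16) in blue, −4.41 (SE 0.16) in red and −3.08 (SE 0.16) in far-red light. MpLEA-like48 was at −3.83 (SE 0.22), −4.36 (SE 0.22), −2.95 (SE 0.22) and −3.56 (SE 0.22) in the same order. A difference is called here when limma's Benjamini-Hochberg adjusted p is under 0.05 and its log2 size at least 1. All 5 genes met that mark in each light, as did, among all genes tested, 11.7% of genes for falls in white, 10.1% in blue, 13.6% in red and 2.98% in far-red light. Since such falls served the choice, nothing is read from that count.

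Continued darkness gave unlike values for the 5 genes. Against time zero, MpLEAL7 rose by 1.42 (SE 0.27, adjusted p = 7.0e-06) after 12 h of darkness by limma, and it was the only gene of the 5 called, beside 0.904% of all genes tested called higher. The dark libraries may have served the choice of this gene, so the rise is not an independent test. MpLEA-like48 stood at 0.90 (SE 0.22, adjusted p = 0.00045) and MpLEA-like14 at 0.79 (SE 0.18, adjusted p = 0.00018), both under the size threshold, while MpLEA-like12 was at 0.14 (SE 0.19) and MpDHN1 at −0.20 (SE 0.16). The 3 dark libraries of MpDHN1 at 12 h nonetheless lay below those at time zero, by that small amount. At 30, 60 and 180 min of darkness no difference of any of the 5 from time zero exceeded 0.30 in size. By 24 h the values, given with no test, were 1.58 for MpLEAL7, 1.50 for MpLEA-like48, 0.99 for MpLEA-like14, 0.24 for MpLEA-like12 and −0.30 for MpDHN1. A light-against-darkness difference at 24 h is the change in light less the change in darkness. For MpLEA-like48 in red light, the −2.95 against darkness is made of −1.45 in light and 1.50 in darkness, about equal parts. For MpDHN1 in white light, the −5.36 is made of −5.66 in light and −0.30 in darkness, so the difference lies in the light libraries.

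**Figure D2:**
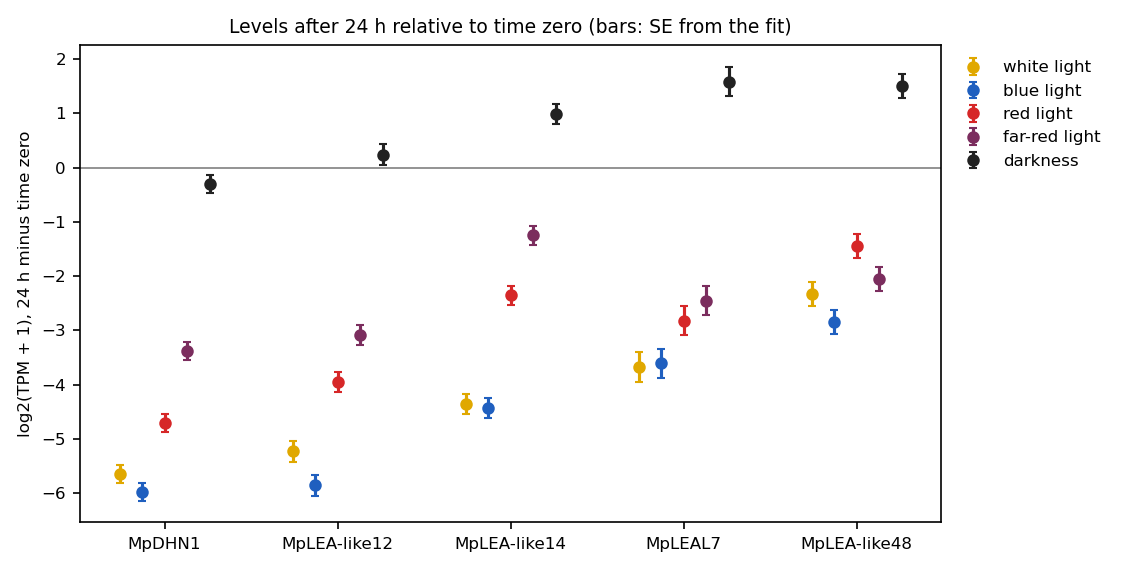
Difference of each 24 h group from time zero in log2(TPM + 1) for the 5 genes (horizontal axis; vertical axis in log2 units), in white, blue, red and far-red light and in darkness; points are fitted differences and bars are SE. Darkness lies near 0 for MpDHN1 and MpLEA-like12 and above 1 for MpLEAL7 and MpLEA-like48, and every light lies below 0.

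Measured from time zero, most values lay below 0 at 30 min, and MpLEAL7 stood above it at 60 min. At 30 min all 5 genes were below time zero in red and far-red light and 4 of 5 in white and blue light. Only MpDHN1 in red light was called, at −1.04 (SE 0.16, adjusted p = 1.8e-07 by limma), beside 0.552% of all genes. Without replicate 3 of every group, and also with a pseudocount of 5, it was at −0.98, under the size threshold. With median-ratio scaling MpLEA-like12 in red light was called as well (−1.15). At 60 min MpLEAL7 rose above time zero in white light by 1.07 (SE 0.27, adjusted p = 0.0004) and in red light by 1.25 (SE 0.27, adjusted p = 4.2e-05). In blue light it was at 0.81 (SE 0.27, adjusted p = 0.0067), under the size threshold. At an unadjusted p under 0.05, 2 of the 5 were higher and 2 lower in blue light at 60 min. The same mark gave 3 higher and 2 lower in white and in red light, and 2 higher and 0 lower in far-red light. In far-red light MpLEAL7 was at 1.28 (SE 0.27, adjusted p = 6.3e-05) with all libraries and at 1.92 without replicate 3. MpLEA-like48 was at 0.98 (SE 0.22, adjusted p = 0.00023), not called, and at 1.49 and called without it. Called higher at 60 min were thus 1 of 5 genes in white, 0 in blue, 1 in red and 1 in far-red light, against 6.59%, 7.48%, 8.86% and 1.66% of all genes. The rise of MpLEAL7 in white light was not called without replicate 2 of every group (0.73), nor that in far-red light without replicate 1 or 2 (0.91 and 0.79). MpDHN1, MpLEA-like12 and MpLEA-like14 were within 0.59 above and 0.71 below time zero at 60 min in all 4 lights.

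The falls from time zero began by 180 min in white, blue and red light. In white light MpDHN1 fell by 3.53 (SE 0.16, adjusted p = 8.5e-29 by limma) and MpLEA-like12 fell by 2.69, MpLEA-like14 by 1.39 and MpLEAL7 by 1.28, while MpLEA-like48 at −0.52 was not called. In blue light MpDHN1 fell by 2.19 and MpLEA-like12 fell by 2.43, and in red light MpDHN1 fell by 3.08 and MpLEA-like12 fell by 1.65. Called lower at 180 min were 4 of 5 genes in white, 2 in blue, 2 in red and 1 in far-red light, beside 7.56%, 7.37%, 7.85% and 0.513% of all genes tested. In far-red light MpLEAL7 was instead higher than at time zero, at 1.21 (SE 0.27, adjusted p = 8.1e-05), beside 3.85% of all genes. MpLEA-like12 fell there by 1.02, below the size threshold once replicate 1 (−0.998) or replicate 3 (−0.87) was left out everywhere. By 12 h, 5 of 5 genes were called lower in white, 4 in blue, 4 in red and 1 in far-red light, beside 9.49%, 8.51%, 10.4% and 3.39% of all genes. Low levels in light served the choice, so nothing is read from the counts of falls at 180 min and 12 h. White light gave −6.17 (SE 0.16, adjusted p = 8.0e-42) for MpDHN1 and −2.57 (SE 0.22, adjusted p = 2.8e-16) for MpLEA-like48, the ends of the range. MpLEA-like48 was the gene not called in blue (−0.51) and red light (−0.67). The far-red call was MpDHN1, at −1.31 (SE 0.16, adjusted p = 2.3e-10), and MpLEA-like12 there was at −0.9974 (SE 0.19), just short of the size threshold.

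At 12 h the level in white light was lower than in each monochromatic light for all 5 genes. Low levels in light served the choice, and these light libraries may have been used in it, so the calls are not independent tests. White minus blue ran from −1.48 to −2.15 on the log2 scale, with adjusted p of at most 1.1e-05 by limma, where 0.751% of all genes tested were called lower. White minus red ran from −1.06 to −2.28 (adjusted p at most 0.0032), where 0.421% of all genes were called lower. In TPM, MpLEA-like48 was at 0.954 ± 0.432 in white light, against 7.08 ± 1.46 in blue and 6.44 ± 2.65 in red light (SD, n = 3), and MpLEA-like14 at 1.61 ± 0.404 in white light, against 10.6 ± 2.21 in blue and 11.9 ± 3.76 in red light. No white-light library of any of the 5 genes overlapped a blue or red one at 12 h. These white-light levels are under 2 TPM, so the size depends on the pseudocount: with 5 in place of 1, the number of genes called was 2 against blue and 1 against red light. Without replicate 2 of every group MpLEAL7 was not called against red light (−0.92). Far-red light kept the higher levels. White minus far-red was called for all 5 genes, from −2.08 to −4.86, beside 8.56% of all genes called lower. Red minus far-red and blue minus far-red were each called for 4 of 5 genes, beside 9.66% and 6.96% of all genes. The exception was MpLEA-like48, at −0.19 (SE 0.22) for red and −0.02 (SE 0.22) for blue minus far-red light. Blue minus red light gave no call at 12 h: 0 of 5 genes were called lower, beside 0.36% of all genes. At an unadjusted p under 0.05, 0 of the 5 were lower and 1 was higher in blue light, and the differences ran from 0.75 (SE 0.16, adjusted p = 0.00022) for MpDHN1 to −0.13 (SE 0.18, adjusted p = 0.65) for MpLEA-like14. MpDHN1 was at 3.33, 4.63 and 3.18 TPM in blue and 1.72, 2.55 and 1.21 TPM in red light, without overlap, but under the size threshold; it was called higher in blue light with a pseudocount of 0.1 (1.02).

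**Figure D3:**
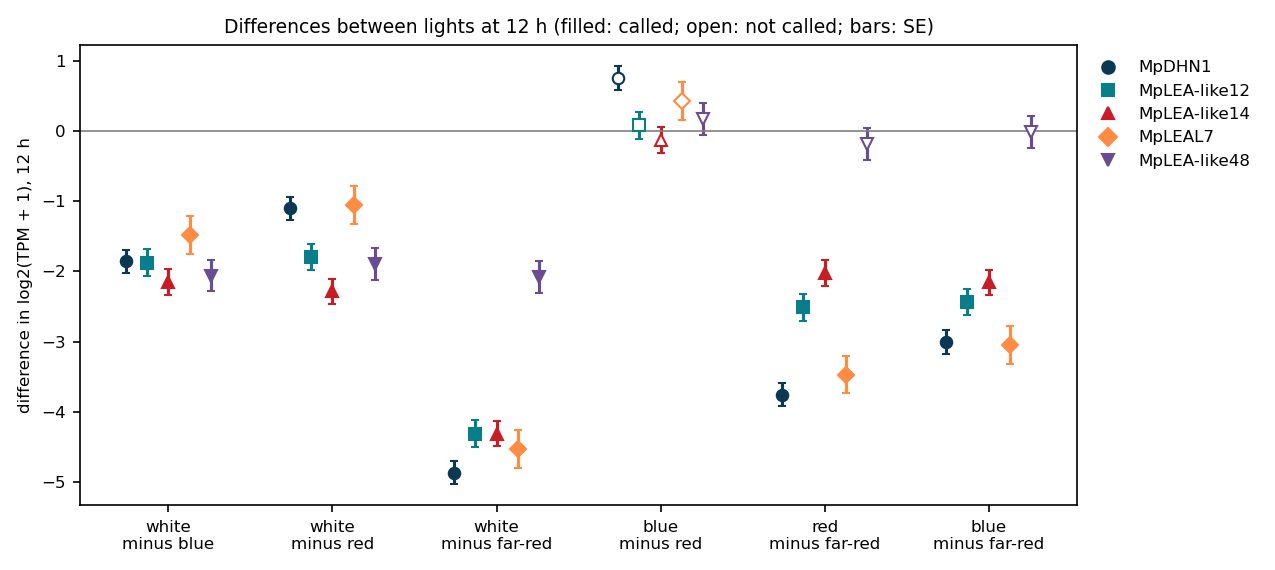
Difference in log2(TPM + 1) between pairs of lights at 12 h for the 5 genes; filled symbols were called by limma, open symbols were not, and bars are SE. All 5 genes lie below 0 where white light is compared with another light, and MpLEA-like48 lies near 0 for red and blue minus far-red light.

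At 180 min the order was not the same for all genes, and these calls too are not independent of the choice. White minus blue was called lower for 3 of 5 genes (beside 0.329% of all genes) and white minus red for 4 (beside 0.329%). With a pseudocount of 5 the counts were 2 and 1: MpLEA-like48 was not called against blue (−0.92), nor were MpLEA-like12 (−0.84), MpLEA-like14 (−0.95) and MpLEA-like48 (−0.86) against red light. The largest of these was MpLEAL7, at −2.11 (SE 0.27, adjusted p = 3.5e-09) for white minus blue and −1.93 (SE 0.27, adjusted p = 3.1e-08) for white minus red light. MpDHN1 differed between white and blue light, at −1.34 (SE 0.16, adjusted p = 1.3e-09), and not by the size threshold between white and red, at −0.45 (SE 0.16, adjusted p = 0.033). Of blue and red light, MpLEA-like12 met the size threshold against red, with −1.04 (SE 0.19, adjusted p = 1.2e-05) against red and −0.26 (SE 0.19, adjusted p = 0.35) against blue light; its call against red ended without replicate 1 of every group (−0.81), and that of MpLEA-like14 ended without replicate 2 (−0.98). Against far-red light, 4 of 5 genes were lower in white (beside 8.38% of all genes), 1 in red (8.9%) and 2 in blue light (8.04%). Without replicate 2 of every group MpLEA-like14 was at −0.93 for white minus far-red light and not called, nor was it with a pseudocount of 5 (−0.97). The red case was MpDHN1, at −2.80 (SE 0.16, adjusted p = 1.2e-23), and the blue cases were MpDHN1 and MpLEA-like12, at −1.90 and −1.41. Blue minus red had 0 calls among the 5 (beside 0.253% of all genes called lower; at an unadjusted p under 0.05, 2 of the 5 were lower and 1 higher in blue light), with MpDHN1 at 0.89 (SE 0.16, adjusted p = 1.4e-05), and MpDHN1 was called higher in blue light once replicate 1 of every group was left out (1.03). At 30 and 60 min no pair of lights gave a call for any of the 5 with all libraries. Without replicate 3 of far-red light at 60 min, blue minus far-red was called for MpLEAL7 (−1.12) and MpLEA-like48 (−1.03).

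At 24 h, given as values with no test, blue light lay below red light for all 5 genes, without overlap. Blue minus red stood at −1.27 (SE 0.16) for MpDHN1, −1.90 (SE 0.19) for MpLEA-like12, −2.08 (SE 0.18) for MpLEA-like14, −1.40 (SE 0.22) for MpLEA-like48 and −0.78 (SE 0.27) for MpLEAL7. At 12 h, by contrast, the blue and red libraries overlapped for every gene save MpDHN1, where blue lay above red. White minus blue lay between −0.07 and 0.63 at 24 h, against −1.48 to −2.15 at 12 h. Red minus far-red light was at −1.33 for MpDHN1 and at 0.61 for MpLEA-like48.

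Ranked by mean TPM over the 26 groups, which is a description since the genes were picked for this pattern, darkness at 24 h held the highest level of MpLEA-like12, MpLEA-like14, MpLEAL7 and MpLEA-like48, and far-red light at 60 min that of MpDHN1. White light at 12 h was the lowest group for MpDHN1 and MpLEAL7, and blue light at 24 h for MpLEA-like12, MpLEA-like14 and MpLEA-like48. Few neighbours in the order were apart. Of 25 pairs of adjacent groups, 9 did not overlap for MpDHN1, 7 for MpLEA-like12, 3 for MpLEA-like14, 4 for MpLEAL7 and 1 for MpLEA-like48. For MpDHN1 the last gap before the lowest groups lay between red light at 12 h and white light at 24 h. For MpLEAL7 it lay between red and blue light at 24 h, and for MpLEA-like12 between white light at 12 h and blue light at 24 h. For MpLEA-like48 the order was nearly continuous, and the gap lay between red and far-red light at 24 h.

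The 5 genes were unevenly alike in their pattern over the 26 group means of log2(TPM + 1). MpDHN1 and MpLEA-like12 were the closest pair (r = 0.975), and MpDHN1 and MpLEA-like48 the least close (r = 0.805). MpLEAL7 and MpLEA-like48 stood at r = 0.919. These are descriptions across groups of the same 78 libraries, and other genes share the pattern: 11.3% of all genes kept had r over 0.8 with MpDHN1, 9.15% with MpLEA-like12, 3.35% with MpLEA-like14, 2.71% with MpLEAL7 and 0.766% with MpLEA-like48. The genes most like MpDHN1 were Mp1g07900 (r = 0.989), Mp1g02900 (r = 0.986) and Mp4g19390 (r = 0.982), and those most like MpLEA-like12 were Mp1g03140 (r = 0.989), Mp2g02630 (r = 0.979) and Mp4g19390 (r = 0.979). MpLEA-like14 was most like MpLEA-like37 (r = 0.961), Mp2g06890 (r = 0.960) and MpLEA-like12 (r = 0.949). MpLEAL7 was most like Mp2g26440 (r = 0.960), Mp3g21610 (r = 0.947) and Mp7g07330 (r = 0.940), and MpLEA-like48 was most like Mp6g06570 (r = 0.958), Mp2g26440 (r = 0.958) and Mp4g15740 (r = 0.945). Apart from MpLEA-like37 and MpLEA-like12 these carry no symbol in the name table. Mp2g26440, close by locus number to MpLEAL7 and to other LEA genes, was among the 3 nearest of both MpLEAL7 and MpLEA-like48. It averaged 0.0726 TPM in white and 1.21 TPM in far-red light at 24 h, against 40.1 TPM in darkness, and 16.0 TPM at time zero. MpDHN1 and MpLEA-like48 are close by locus number, with Mp6g07550 between them. Its 3 libraries were at 1.43, 0.572 and 0.479 TPM in white light at 24 h, 15.2, 14.4 and 6.88 TPM in far-red light at 60 min and 8.31, 11.3 and 10.2 TPM in darkness at 24 h, with 8.19, 8.31 and 7.41 TPM at time zero. It had r = 0.944 with MpDHN1 and r = 0.738 with MpLEA-like48.

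The rest of the family was set beside them with the light-against-darkness comparison tested, since these genes were not picked as members. The name table gives 67 other genes named as LEA, LEA-like or dehydrin, of which 59 passed the filter on low values. At 60 min 17 of the 59 were called higher and 1 lower in white light, 15 and 1 in blue, 19 and 1 in red, and 8 and 0 in far-red light, by limma with adjustment over all 13054 genes. At an unadjusted p under 0.05, 5 were lower in far-red light. Of all genes, 7.41%, 8.56%, 9.89% and 2.05% were called higher in white, blue, red and far-red light, and 2.33%, 2.11%, 2.41% and 0.276% lower. The family's median difference was 0.47 in white, 0.40 in blue, 0.50 in red and 0.27 in far-red light, where the median of all genes was 0.14, 0.18, 0.20 and 0.12. The far-red count was 17 without replicate 3 of far-red light, 16 without replicate 3 of both far-red light and darkness, and 4 without replicate 3 of darkness alone. MpLEAL5 (Mp4g05760) and MpLEA-like18 (Mp4g05730) had the largest rises in white, blue and red light. MpLEAL5 averaged 36.2 ± 4.21 TPM in white light, against 2.49 ± 0.224 TPM in darkness (SD, n = 3), a difference of 3.41 (SE 0.24, adjusted p = 3.7e-20). MpLEA-like18 averaged 272 ± 26.4 TPM in white light, against 28.6 ± 5.40 TPM in darkness, a difference of 3.22 (SE 0.19, adjusted p = 5.2e-23). In blue and red light the differences were 2.88 and 3.22 for MpLEAL5 and 2.66 and 2.97 for MpLEA-like18. In far-red light MpLEA-like61 (Mp8g13550), at 1.94, and MpLEA-like18, at 1.67, had the largest rises. The gene called lower was MpLEA-like33 (Mp5g22700) in white light, at −1.15, and MpLEA-like45 (Mp6g03120) in blue and red light, at −1.06 and −1.01. The MpLEA-like45 calls ended without replicate 2 of every group (−0.84 and −0.95), and that in red light also without replicate 3 (−0.97).

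**Figure D4:**
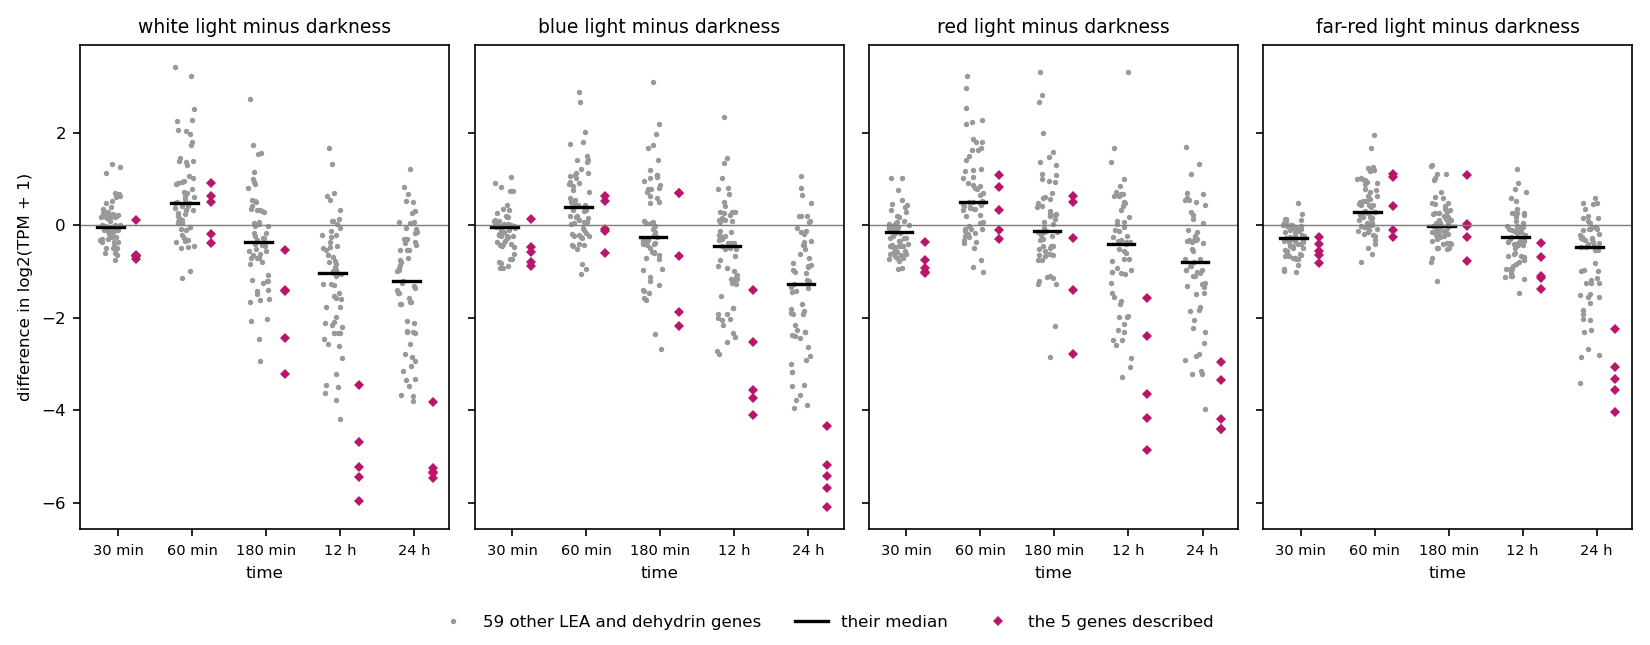
Light minus darkness in log2(TPM + 1) at 5 times (evenly spaced, not to scale) in the 4 lights; grey points are the 59 other LEA and dehydrin genes, the black bar is their median, and diamonds are the 5 genes described. The median of the 59 lies above 0 at 60 min and below 0 at 24 h in every light. At 24 h the 5 genes, picked for low levels in light, lie at the bottom in white and blue light. Of the 2 largest falls among the 59 in red light, MpDHN3 (−3.97) lies below MpLEA-like14 and MpLEA-like48, and MpLEA-like50 (−3.22) below MpLEA-like48. Of the 2 largest in far-red light, MpLEA-like61 (−3.42) lies below MpDHN1, MpLEA-like12 and MpLEA-like14, and MpLEA-like50 (−2.85) below MpLEA-like14.

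By 24 h the counts lay on the other side. In white light 30 of the 59 were called lower and 1 higher, in blue 34 and 1, in red 24 and 3, and in far-red light 21 and 0 (4 higher in far-red light at an unadjusted p under 0.05). Beside the shares of all genes called lower that were given above, 14.5%, 13.5%, 16% and 5.98% of all genes were called higher in white, blue, red and far-red light. The median difference was −1.20 in white, −1.28 in blue, −0.81 in red and −0.47 in far-red light, where the median of all genes lay between 0.01 and 0.12. MpDHN3 (Mp6g15610), another dehydrin gene, averaged 14.4 ± 1.45 TPM in white light, against 212 ± 11.8 TPM in darkness, and 12.8 TPM in blue and 12.6 TPM in red light. Its difference was −3.80 (SE 0.11, adjusted p = 2.0e-40) in white, −3.96 in blue and −3.97 in red light. MpLEAL3 (Mp6g02960) in white light, MpLEA-like37 (Mp6g03000) in blue light, MpLEA-like50 (Mp6g12730) in red light and MpLEA-like61 in far-red light stood at −3.69, −3.90, −3.22 and −3.42. MpLEA-like50 in far-red light averaged 27.1 ± 2.26 TPM in far-red light, against 201 ± 8.87 TPM in darkness. MpLEA-like61 was thus called higher at 60 min and lower at 24 h in far-red light, at 58.9 ± 32.6 TPM at 60 min and 0.437 ± 0.150 TPM at 24 h. MpLEA-like13 (Mp3g06270) was called higher, at 78.9 ± 3.88 TPM in red light, against 31.2 ± 0.121 TPM in darkness, with differences of 1.22, 1.05 and 1.31 in white, blue and red light. MpLEA-like49 (Mp6g11340) was at 1.70 in red light. Over the 26 groups MpLEA-like13 had the lowest mean r with the 5 genes (−0.76), and MpLEA-like37 the highest (0.91).

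Genes of abscisic acid, the hormone that induces MpDHN1 in this liverwort, were taken from a list of 14, of which 11 passed the filter. At 60 min 5 of 11 were called higher in white, 6 in blue, 6 in red and 2 in far-red light, and 0 lower in any of them (at an unadjusted p under 0.05, 1, 1, 1 and 1 lower in white, blue, red and far-red light), beside the shares of all genes given for the same contrasts above. With median-ratio scaling of the libraries the counts in white, blue and red light were 4, 3 and 4. With a pseudocount of 5 they were 4, 5 and 4, and 1 in far-red light. The white-light count was 6 without replicate 3 of darkness, and the far-red count 3 without replicate 3 of far-red light, of darkness or of both. Of the synthesis genes, MpABA1, named for the zeaxanthin epoxidase, averaged 293 ± 3.73 TPM in white light, against 64.0 ± 3.52 TPM in darkness at 60 min, and its differences were 2.18, 1.77, 1.67 and 0.82 in white, blue, red and far-red light. MpNCED, named for the enzyme of the committed cleavage step, stood at 1.66, 1.50, 1.40 and 1.37 in the same order, and MpABA4, linked to neoxanthin formation, at −0.32, −0.52, −0.59 and −0.22. MpCYP707A, named for the enzyme that breaks the hormone down, stood at 1.04, 1.41, 1.15 and 2.94. Its far-red libraries at 60 min were at 213, 107 and 18.1 TPM, with replicate 3 far below the others, against 9.96, 6.77 and 10.4 TPM in darkness. Its calls in white and red light ended without replicate 2 of every group (0.88 and 0.98). The receptor gene MpPYL1 stood at 1.26, 1.16, 1.23 and 0.35. The transcription factor gene MpABI3A was at 0.92, 1.18, 1.15 and 0.83 and MpABI5B at 1.36, 1.15, 1.38 and 0.98. Without replicate 3 of darkness MpABI3A was called in white light (1.02) and MpABI5B in far-red light (1.01), the second also without replicate 3 of far-red light (1.30) and without both (1.33). The kinase genes MpSNRK2A and MpSNRK2B, MpABI5A and MpABCG25, named for an exporter known in Arabidopsis, were not called in any light at 60 min or 24 h.

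**Figure D5:**
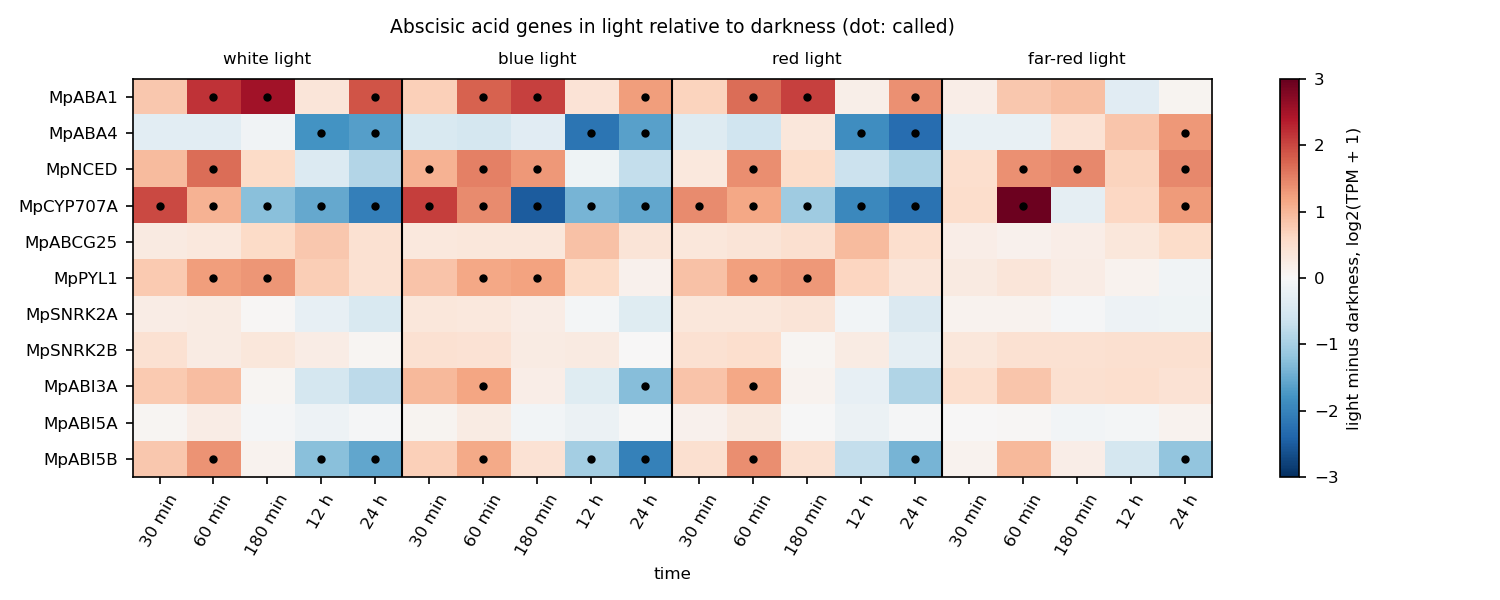
Light minus darkness in log2(TPM + 1), as colour from -3 to 3, for the 11 abscisic acid genes (rows) at 5 times in the 4 lights (columns); a dot marks a difference called by limma. MpCYP707A and MpABA4 are lower in white, blue and red light and higher in far-red light at 24 h.

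At 24 h 3 of the 11 were called lower and 1 higher in white, 4 and 1 in blue, 3 and 1 in red, and 1 and 3 in far-red light. Of all genes, 11.7%, 10.1%, 13.6% and 2.98% were called lower in white, blue, red and far-red light, and 14.5%, 13.5%, 16% and 5.98% higher. MpCYP707A was lower in white, blue and red light, at −2.04, −1.55 and −2.21, and higher in far-red light, at 1.28 (SE 0.29, adjusted p = 0.00012). MpABA4 had the same signs, at −1.65, −1.62, −2.29 and 1.30 in white, blue, red and far-red light. In TPM it averaged 205 ± 10.7 in far-red and 16.1 ± 0.345 in red light, against 82.8 ± 5.13 in darkness. MpNCED averaged 14.3 ± 1.68 TPM in far-red light, against 4.69 ± 0.775 TPM in darkness, at 1.43 (SE 0.15, adjusted p = 9.7e-13), and was not called in the other lights (−0.88, −0.70 and −0.96 in white, blue and red). With a pseudocount of 5 the far-red call of MpNCED ended (0.996). With a pseudocount of 0.1 it was called lower in white (−1.12) and red light (−1.24), in red also without replicate 1 of every group (−1.06). MpABI5B was called lower in all 4 lights, at −1.56, −2.02, −1.39 and −1.18, and averaged 31.4 ± 2.35 TPM in far-red light, against 72.2 ± 2.16 TPM in darkness. MpABI3A was called lower in blue light, at −1.28, and stood at 0.44 in far-red light. MpABA1 was higher in white, blue and red light, at 1.89, 1.25 and 1.38, and at 0.09 in far-red light. MpPYL1 was not called in any light at 24 h. Hormone levels were not measured in these libraries.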

How the data were processed

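Whole thalli gave poly(A) paired-end libraries of 150 bases, per the labels' protocols. The values are TPM for 19355 genes, per the authors' deposited table, and each of the 78 columns sums to 1000000. Reads were handled with STAR, the only tool that the submitters' processing notes name. For its version, build, annotation and quantifier: not given in the sources used here. Another deposited table, of 26 averages equals the replicate means within 1e-06 and was not analysed separately.

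A gene entered when 3 or more libraries reached 1 TPM, which left 13054. R 4.3.3 and limma 3.58.1 were used to fit log2(TPM + 1) over all 78 libraries, a mean for each group and an intensity trend, for 75 contrasts, each with Benjamini-Hochberg adjustment over the kept genes. A call needs an adjusted p under 0.05 and a log2 size of at least 1. Fold changes on this scale understate the change of low genes. The script was tested on simulated data. Depth is unknown, since TPM keeps none, so no counting interval is given. Each library lists 11838 to 12262 genes at 1 TPM or more.

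The 5 genes, the gene lists and the tests were chosen with earlier results of these data known. Genes named beyond the 5 are the 3 most alike to each, for each light at 60 min and 24 h up to 2 other LEA genes with the largest called rise and up to 2 with the largest called fall, every kept abscisic acid gene, and the gene between MpDHN1 and MpLEA-like48 by number. Symbols came from a RefSeq name table of assembly MpTak2_v7.1, which matched 17384 of its 18136 protein-coding tags and gave 3091 symbols. No coordinates or sequences are given. In 0 of the 75 contrasts were all 3 correlations between same-numbered replicates over 0.1, so libraries were not treated as pairs. Single correlations were higher, such as 0.337 for replicate 1 of red and far-red light at 12 h. The check thus does not show that no libraries shared a batch. Alternatives were pseudocounts of 0.1 and 5, no filter, median-ratio scaling, no trend, only the 2 groups compared, the replicate number as a block, leaving out each replicate, and leaving out the libraries that stood apart.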

Additional observations from a re-analysis of the deposited data

Results flagged for a closer look

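Differences between lights at the same time were singled out, each tested by limma with adjustment over all genes kept. The light libraries compared may have served the choice of the 5 genes, so these calls are not independent tests. At 180 min white minus blue light was called for 3 of the 5 genes, white minus red for 4, white minus far-red for 4, red minus far-red for 1 and blue minus far-red for 2. In the same order, 0.329%, 0.329%, 8.38%, 8.9% and 8.04% of all genes were called lower. At 12 h white minus blue, white minus red and white minus far-red light were each called for 5 of the 5 genes, and red minus far-red and blue minus far-red for 4 each. In the same order, 0.751%, 0.421%, 8.56%, 9.66% and 6.96% of all genes were called lower. With a pseudocount of 5 the counts at 180 min were 2 for white minus blue, 1 for white minus red and 3 for white minus far-red light, and those at 12 h were 2 for white minus blue and 1 for white minus red light. In every one of these calls the light named first had the lower level. The lights also differed in intensity, and wavelength and intensity cannot be told apart.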

How the results depend on the processing

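No called result changed direction under any of the 13 alternatives. With a pseudocount of 5, which shrinks differences between low values by construction, the other LEA genes called higher at 60 min numbered 9 in blue and 2 in far-red light (15 and 8 with a pseudocount of 1), those called lower at 24 h numbered 20 in blue, 14 in red and 13 in far-red light (34, 24 and 21), and at 12 h white light was called lower than blue for 2 and lower than red for 1 of the 5 genes (5 each). The far-red count of other LEA genes higher at 60 min was 3 with only the 2 groups compared, 4 without replicate 3 of darkness, 17 without replicate 3 of far-red light, 16 without both, and 3 to 16 when each replicate number was left out in turn. Of the 5 genes, those lower in far-red light at 12 h than at time zero numbered 1, and 2 with a pseudocount of 0.1 or with median-ratio scaling, and 1 to 2 when each replicate number was left out. The rise of MpLEAL7 in far-red light at 60 min was also not called with only the 2 groups compared. Leaving out replicate 3 of far-red light at 60 min, alone or with that of darkness, was chosen after seeing the data. With the replicate number as a block, no call changed and no count moved by over 1.5 times: for example, 17 other LEA genes were higher in white light at 60 min with the block and 17 without it. The median of all genes in light minus darkness was 0.01 to 0.20 with TPM alone and −0.03 to 0.01 with median-ratio scaling, which took MpLEAL7 in white light at 60 min against time zero to 0.95, under the size threshold. Depth is unknown, so no limit can be set on levels listed near 0 TPM.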
